A study of Xenopus laevis with 18 samples.

Results

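A group of 187 gene models, of 31357 measured, was low in the early embryo of the African clawed frog Xenopus laevis, reached its highest level between the late blastula and the end of gastrulation, and was low again in the tailbud embryo. The models were chosen by their values. The highest of 18 libraries had to be stage 8.5, 9, 10 or 12 and reach at least 10 TPM (a share of all transcripts, corrected for transcript length). The mean of stages 0, 2, 6, 6.5 and 7 and the mean of stages 23, 26, 30 and 33 each had to be at most 10% of that peak. Their rise, their peak and their low ends are therefore given as a description and were not tested.

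Poly(A)+ RNA was sequenced from whole J strain embryos, in 18 libraries of 1 Nieuwkoop-Faber stage each (the numbered developmental stages of Xenopus). The stages form an early period (0, 2, 6, 6.5 and 7), a blastula period (8, 8.5 and 9), a gastrula period (10 and 12), a neurula period (14, 16, 18 and 20) and a tailbud period (23, 26, 30 and 33). The labels give no treatment, and all embryos were grown in dilute saline with gentamycin and frozen when they reached their stage. No stage was replicated, the sources used here do not say whether the libraries share a clutch, and the depth of sequencing is unknown. In whole embryos, fewer cells of a type and less RNA per cell cannot be told apart, and after poly(A) capture a longer tail can raise a value as more RNA does.

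As background, a frog egg carries stored maternal mRNA and divides rapidly with little transcription of its own. At the mid-blastula transition the cell cycles lengthen and the embryo's own genome is switched on. Among the first genes to be transcribed are regulators of germ layer formation, such as Nodal-type signals, Siamois-type homeobox factors and T-box factors, several of which are known to be expressed briefly around gastrulation, when the mesoderm and endoderm move inside. The deposited table gives the authors' own identifiers without gene symbols, and 0 of its 31357 models matched the reference list of names. No pulse model can therefore be tied to any of those genes here, no role is given to any of them, and no sequence is shown.

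The rule narrowed the table in steps. A peak of at least 10 TPM at stage 8.5, 9, 10 or 12 was found for 4195 models, of which 434 were also low early. Of these 434, 187 were low in the tailbud, and the other 247, called sustained models below, had a tailbud mean above 10% of the peak. The nearest model inside the peak threshold reached 10.05 TPM and the nearest outside it 9.49 TPM, both at stage 10. At the early threshold the nearest models stood at 9.69% of the peak inside and 10.7% outside, and at the tailbud threshold at 9.91% inside and 10.1% outside. A further 480 models met every condition but the height of the peak.

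A few features of the libraries bear on these values. Spike-in RNAs, synthetic transcripts added to each sample, made up between 1.49% and 11.2% of the total TPM. Relative to one another, 37 of them had a median SD of 0.31 on the log2 scale over the 18 libraries, a measure of the error of preparation and sequencing alone. A pair of gene models was above 0 in 5 libraries (stages 2, 6, 8.5, 10 and 30) and listed at 0 in the other 13. In those 5 libraries this on/off pair took 20.96%, 42.7%, 19.01%, 36.8% and 3.82% of the total TPM, so the share left for every other model was smaller there. The libraries of stages 2 and 6 enter the early mean, and those of stages 8.5 and 10 the peak. The columns of stages 0, 20, 23, 26, 30 and 33 carry a suffix that the labels do not explain.

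The peaks were concentrated at the end of gastrulation. Stage 12 held the peak of 103 models (55.1%), stage 10 of 42, stage 9 of 28 and stage 8.5 of 14. The median peak was 52.8 TPM, with a range from 10.05 to 1581 TPM. The quartiles were 25.2 and 99.04 TPM, and 31 models stayed under 20 TPM. No library lies between stages 10 and 12, so a model highest in that gap is counted at one of them. After rescaling without the on/off pair, which raises stage 10 relative to its neighbours, 86 models peaked at stage 12 and 66 at stage 10. 17 of the models moved from stage 12 to stage 10 and 7 from stage 9 to stage 10 under that rescaling, and 163 kept their peak stage.

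**Figure D1:**
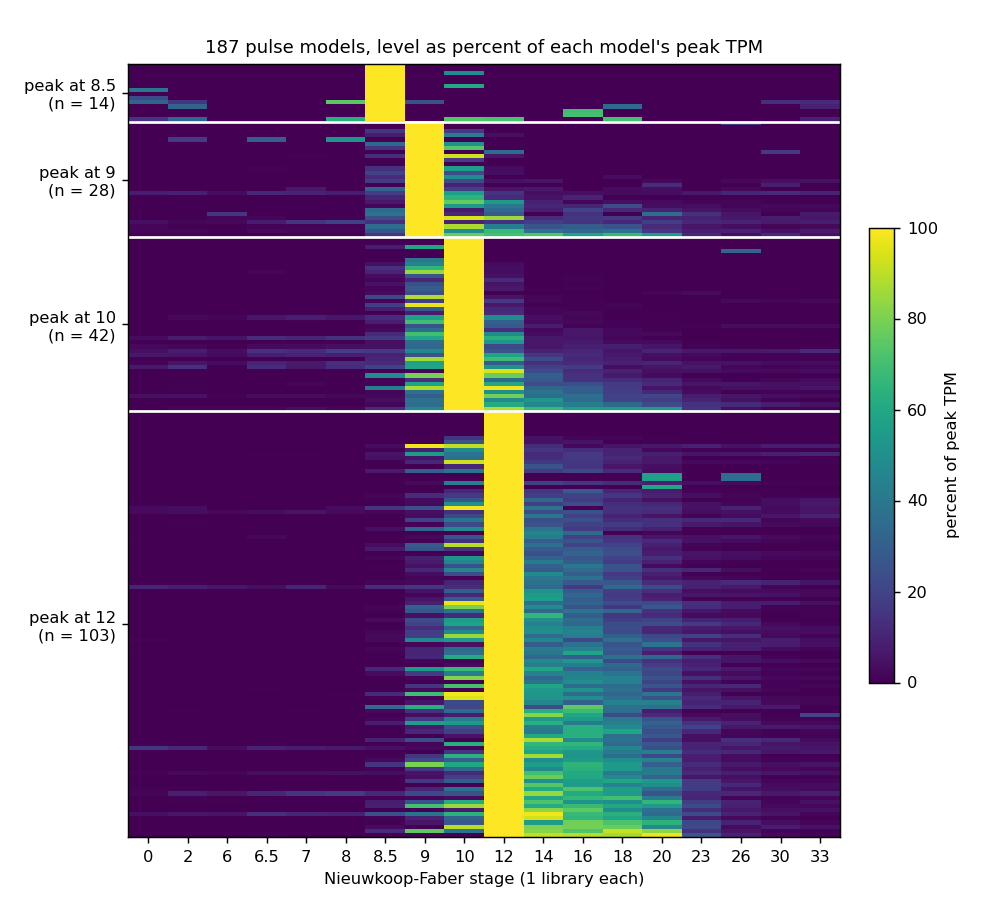
Level of each of the 187 pulse models (rows) in each library (columns, Nieuwkoop-Faber stage) as percent of the model's own peak TPM, grouped by peak stage and ordered within a group by the neurula level. Most of the 103 models that peak at stage 12 keep colour into the neurula, while most of the 42 that peak at stage 10 are dark from stage 14 on.

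Together the 187 models held a small share of the RNA at every stage. Their summed TPM was 192, 158, 102, 308 and 418 at stages 0, 2, 6, 6.5 and 7, and 524, 1512 and 6485 at stages 8, 8.5 and 9. It was 9290.4 at stage 10 and 15424 at stage 12, then 7875, 6704, 5101 and 3748 at stages 14, 16, 18 and 20. In the tailbud it was 1198, 741, 409 and 369.5 at stages 23, 26, 30 and 33. The sum was thus highest at stage 12 as deposited, and no library outside stages 9 to 16 came above 5101.

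The difference between stages 10 and 12 depended on the scaling. As percent of gene-model TPM without that pair, the pulse models held 0.691%, 1.60%, 1.65% and 0.841% at stages 9, 10, 12 and 14. Stages 10 and 12 were then close, against 9290.4 and 15424 TPM as deposited. Under quantile normalization the sum was 15849 at stage 10 and 15000.2 at stage 12, the reverse order, and with median-of-ratios scaling it was 12628 and 20652. The 5 models with the highest peaks made up 23.2% of the summed TPM at stage 10 and 30.5% at stage 12.

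**Figure D2:**
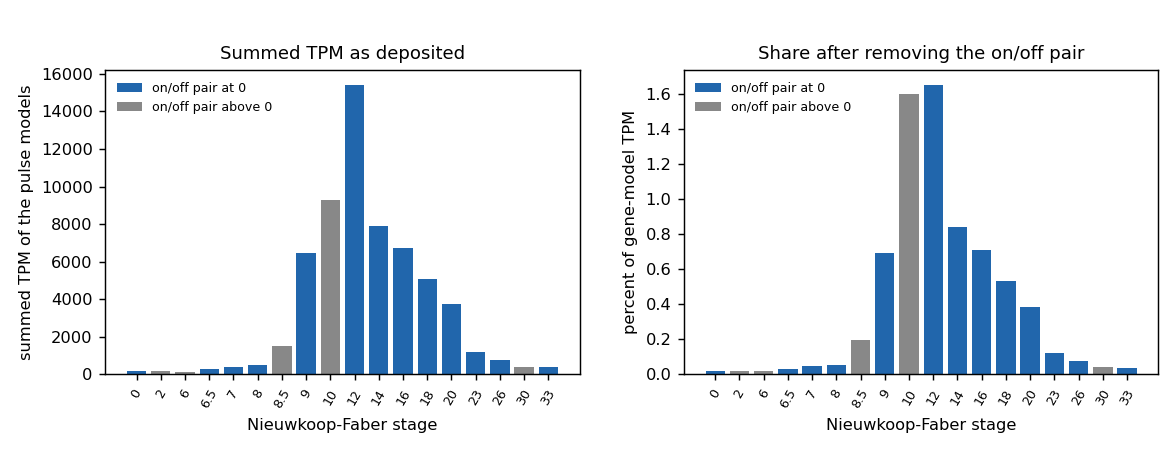
Summed TPM of the 187 pulse models by stage as deposited (left) and as percent of gene-model TPM after removal of the on/off pair (right), 1 bar per library, grey where that pair was above 0. As deposited stage 12 stands alone at 15424 TPM, whereas in the share stages 10 and 12 are level at 1.60% and 1.65%.

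Most pulse models were listed at 0 before the genome became active. 115 of the 187 (61.5%) were at 0 in all 5 early libraries, against 65 of the 247 sustained models (26.3%). The rule used these libraries to choose both sets, which also differ in peak height, and the difference was not tested. Of the pulse models, 24 had an early mean of at least 1 TPM, and 16 had at least 1 early library at 10% of the peak or more. At stage 8, which the rule bounds only by the peak, 143 of 187 were listed at 0, and at stages 8.5, 9 and 10 it was 50, 36 and 27. The number at 1 TPM or more over stages 8, 8.5, 9, 10 and 12 was 19, 98, 139, 150 and 155. The largest gain in detected models therefore fell between stages 8 and 8.5.

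The stage at which a model first reached 10% of its peak, counted from stage 8 on, was 8 for 9 models, 8.5 for 46, 9 for 68, 10 for 40 and 12 for 24. Of the 103 models that peaked at stage 12, 45 had reached that level by stage 9 (1, 8 and 36 of them at stages 8, 8.5 and 9). Over stages 8.5, 9, 10 and 12 the medians of these 103 were 0.39, 3.78, 18.0 and 54.5 TPM. For the 42 that peaked at stage 10 the medians at stages 8.5, 9 and 10 were 2.57, 21.1 and 52.3 TPM. The models peaking at stage 9 had medians of 3.49 TPM at stage 8.5 and 47.2 TPM at stage 9.

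**Figure D3:**
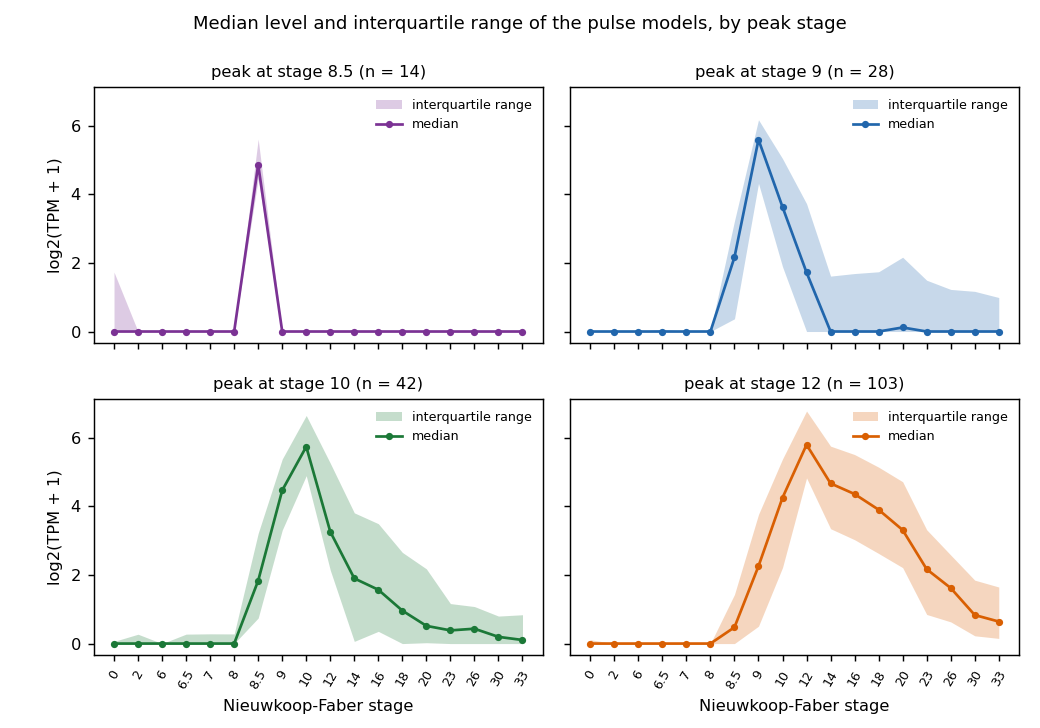
Median level (line) and interquartile range (band) of the pulse models on the log2(TPM + 1) scale by stage, 1 panel per peak stage with n models. The median of the 14 models peaking at stage 8.5 is 0 in every other library, while the 103 peaking at stage 12 decline over many stages.

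The models that peaked at stage 12 included the most abundant of the smooth courses. XeXenL6RMv10011199m stood at 0.55, 0.12, 0, 0.16 and 0 TPM in the 5 early libraries and at 0.31 TPM at stage 8. Over stages 8.5, 9, 10 and 12 its values were 16.3, 146, 465 and 1455 TPM. In the neurula libraries it stood at 1362, 955, 857 and 666 TPM, and in the tailbud at 112, 37.9, 11.8 and 3.2 TPM. Each neurula library stood well above each tailbud library, and stage 14 was close to the peak.

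XeXenL6RMv10055418m, the other of the pair with the highest peaks at stage 12, was listed at 0 in all 5 early libraries. Over stages 8, 8.5, 9, 10 and 12 its values were 0.52, 40.05, 346, 1089.6 and 1221 TPM. The neurula values were 453, 252, 244 and 108 TPM and the tailbud values 18.7, 7.41, 1.7 and 0.84 TPM. Its levels at stages 10 and 12 were close as deposited. Rescaling without the on/off pair raises stage 10 relative to stage 12 and puts stage 10 first in this model.

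Models that peaked at stage 10 were low sooner. XeXenL6RMv10018740m stood at 1.38, 9.02, 8.24, 27.1 and 38.8 TPM early and at 27.1, 54.4 and 259.6 TPM at stages 8, 8.5 and 9. It reached 453 TPM at stage 10, with 218 at stage 12, then 18.75, 5.86, 0.93 and 1.8 TPM in the neurula. In the tailbud it had 0.67, 0.31, 0.22 and 0.23 TPM. The model was thus present at a low level before the mid-blastula transition, and its neurula libraries all lay below its stage 7 value.

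XeXenL6RMv10049277m had the highest peak of this class and also carried an early level. It stood at 29.4, 25.2, 14.3, 37.1 and 45.9 TPM early and over stages 8, 8.5, 9, 10 and 12 at 37.96, 42.6, 119, 462 and 267 TPM. Its neurula values were 75.2, 56.45, 31.3 and 19.15 TPM and its tailbud values 10.9, 4.88, 4.34 and 4.98 TPM. The tailbud libraries all lay below each early library.

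**Figure D4:**
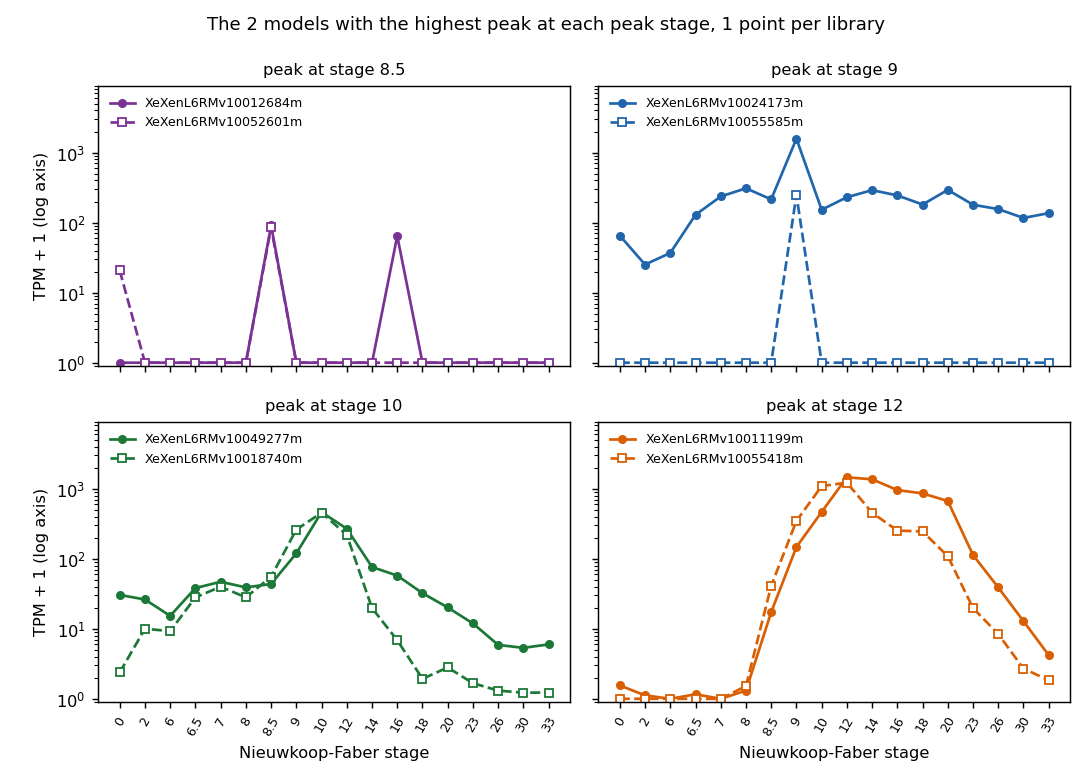
TPM + 1 on a log axis by stage for the 2 models with the highest peak at each peak stage, 1 point per library. The 4 models peaking at stages 10 and 12 have a neighbouring library above 50% of the peak, while 3 of the 4 peaking at stages 8.5 and 9 are at 0 in both neighbouring libraries.

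The highest peaks at stages 8.5 and 9 rested on single libraries. XeXenL6RMv10024173m, with the highest peak of all 187, stood at 1581 TPM at stage 9 but at 214 TPM at stage 8.5 and 152 TPM at stage 10. In its other 15 libraries it ranged from 24.2 TPM at stage 2 to 308 TPM at stage 8, so it was never near 0. XeXenL6RMv10055585m was at 247 TPM at stage 9 and listed at 0 in the other 17 libraries. XeXenL6RMv10012684m stood at 90.04 TPM at stage 8.5 and 63.4 TPM at stage 16, and XeXenL6RMv10052601m at 84.5 TPM at stage 8.5 and 19.7 TPM at stage 0. Both were listed at 0 in the other 16 libraries.

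To set such single-library peaks apart, a limit was chosen after the values were seen: both neighbouring libraries at 10% of the peak or less. XeXenL6RMv10024173m, with a neighbour at 13.5% of its peak, did not meet this limit. The limit took in 12 of 14 models peaking at stage 8.5, 5 of 28 at stage 9, 4 of 42 at stage 10 and 9 of 103 at stage 12. These 30 models were 16.0% of the group, against 5.26% of the sustained models (13 of 247), a difference that was not tested. Their median peak was 25.8 TPM, against 56.4 TPM in the other 157, and 16 of the 187 were listed at 0 in every library but the peak. A model at 0 outside its peak cannot be a sustained model, so the difference from that set is partly built in by the rule. The sets also differ in peak stage, with 7.49% of pulse models and 2.02% of sustained models peaking at stage 8.5. 7 of the 14 models peaking at stage 8.5 were listed at 0 in all 13 libraries in which the on/off pair was at 0, as were 3 of 42 at stage 10. The pair was above 0 at both stages, so a model seen only at its peak there meets this by its peak alone. No model peaking at stage 9 or 12 can meet it. Of the 7 and the 3 models, 2 and 0 were above 0 in 2 or more libraries with the pair. The part of that pair in these values was not tested.

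Without the 30 models, peaks at stages 8.5, 9, 10 and 12 were left for 2, 23, 38 and 94 models. Among the models peaking at stage 9, the one with the highest peak and a neighbour at 50% of it or more, picked after the values were seen, was XeXenL6RMv10041244m. It was at 1.07 TPM or less up to stage 8, and at stages 8.5, 9, 10 and 12 it had 24.4, 67.7, 59.1 and 29.3 TPM. It then stood at 17.65, 20.1, 17.0 and 8.26 TPM in the neurula. As deposited, this course had its highest value at stage 9 with the next stage close to it. Rescaling without the on/off pair raises stage 10 relative to stage 9 and puts stage 10 first in this model, so its peak stage depends on the scaling.

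The level left in the neurula differed with the peak stage. The neurula mean, which the rule bounds only by the peak, had a median of 31.1% of the peak for models peaking at stage 12, 2.18% for stage 10, 1.39% for stage 9 and 0% for stage 8.5. Of the 14 models peaking at stage 8.5, 12 were single-library peaks, so that 0% says little about how long a pulse lasted. Over all 187 models the median was 16.4%, with quartiles of 0.867% and 33.3%. It was under or at 10% of the peak in 69 models and over 50% in 20, of which 18 peaked at stage 12. 34 models were listed at 0 in all 4 neurula libraries and 44 in all 4 tailbud libraries. A later peak lies closer to the neurula, so these medians compare unequal intervals.

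The sustained models, which differ by the rule in the tailbud, kept a higher neurula level. The median was 16.4% of the peak in pulse models and 55.6% in sustained models, and for a peak at stage 12 it was 31.1% in pulse models and 61.8% in sustained models. For a peak at stage 10 the medians were 2.18% in pulse models and 38.6% in sustained models, and for stage 9 they were 1.39% and 27.8%. For a peak at stage 8.5, held by only 5 sustained models, the median was 0% in both sets. Of the pulse models 55.1% peaked at stage 12, against 81.4% of the sustained models. The median peak was 52.8 TPM in pulse models and 35.1 TPM in sustained models. The choice by tailbud level can carry over to the neurula, so these differences were not tested.

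The median of the late class was lower at each stage after the peak than at the one before. The median of the models peaking at stage 12 was 54.5 TPM in that library and 24.4, 19.5, 13.9 and 8.91 TPM in the 4 neurula libraries. In the 4 tailbud libraries it was 3.49, 2.07, 0.78 and 0.56 TPM. Between stages 12 and 14, 132 pulse models of any peak stage had at least 10 TPM at either stage. Of these, 87 (65.9%) were more than 2-fold lower, beside 11.0% of all models with that level, and 0 more than 2-fold higher. Between stages 20 and 23, 49 of 59 (83.1%) were more than 2-fold lower, beside 4.79% of all such models, and 0 more than 2-fold higher. Large steps also fell within the tailbud, where fewer pulse models reached 10 TPM. From stage 23 to 26, 14 of 26 (53.8%) were more than 2-fold lower, beside 1.33% of all such models, and 0 higher. From stage 26 to 30, 6 of 11 (54.5%) were lower and 1 higher, beside 6.11% lower and 3.35% higher of all such models. Of the 37 spike-ins, 1 passed 2-fold at each of the steps from stages 12, 20 and 23, and 7 at the step from stage 26. Spike-ins were counted relative to one another, after removal of their median change at the step, but models on TPM as deposited. A shift shared by all spike-ins is therefore not in their counts, and the 2 kinds of count are not the same measure. The rule fixes the peak and the tailbud mean, so these steps are in part what it chose.

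The rule uses the neurula libraries only as a bound, since none of them may hold a model's highest value. A model must also peak before them and have a mean of 10% of that peak or less after them. A decline through the neurula is thus partly built in. The steps and slopes of the neurula are therefore not independent of the choice of models. From stage 14 to 16, 91 of 99 pulse models stayed within 2-fold, with 4 higher and 4 lower (4.04% each), beside 3.20% higher and 1.38% lower of all models with at least 10 TPM at either stage. From stage 16 to 18, 1 of 95 was more than 2-fold higher and 12 (12.6%) more than 2-fold lower, beside 2.65% higher and 1.87% lower of all such models. From stage 18 to 20, 3 of 80 were higher and 19 (23.8%) lower, beside 5.41% higher and 1.48% lower of all such models. The spike-ins past 2-fold, again counted relative to one another and not on TPM as deposited, numbered 2, 0 and 1 of 37 at these steps. With spike-in scaling the summed level was 4674 at stage 18 and 6036 at stage 20, against 5101 and 3748 TPM as deposited, so the direction of that last step depends on the scaling. Each step rests on 1 library on either side, and stage 20 is the neurula library whose column carries the unexplained suffix.

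The trend across the 4 neurula stages was tested in a fit over all models. A linear term over stage order on the log2(TPM + 1) scale was fitted with limma to all 18 libraries, with Benjamini-Hochberg adjustment over the 23880 models that reached 1 TPM in 2 or more libraries. 171 of the 187 pulse models passed that filter. For pulse models the spread in this fit includes the pulse itself, because stages of a period stand in for replicates. limma called 1 of 171 lower over time, beside 0.147% of all models, and 0 higher, beside 4.34% of all models. At an unadjusted p under 0.05 limma gave 19 pulse models lower (11.1%) and 3 higher (1.75%), beside 1.08% lower and 11.2% higher of all models. XeXenL6RMv10014026m and XeXenL6RMv10041410m, both among the 3 higher, had the same peak (18.47 TPM at stage 12), neurula mean (2.64 TPM) and slope (1.06). They cannot be told apart by these values but were counted separately.

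The fitted neurula slope was negative in 132 of the 171 pulse models and positive in 21. It was 0 in the other 18, which were listed at 0 in all 4 neurula libraries. Its median was -0.28 per stage interval on the log2 scale, against 0.10 over all models. Among models with a neurula mean of at least 1 TPM it was -0.33 in 134 pulse models and 0.11 in all 18290 such models. With spike-in scaling, which raises the median of all models to 0.38, the median of the pulse models was 0. Under median-of-ratios scaling the medians were -0.38 and 0.02 and under quantile normalization -0.39 and -0.01. The median of the pulse models thus lay below that of all models in each of these scalings. It was itself negative in each of them but spike-in scaling, where it was 0. By peak stage, the median slope was 0 for the 9 models tested that peaked at stage 8.5, 0 for 26 at stage 9, -0.25 for 39 at stage 10 and -0.35 for 97 at stage 12. The medians of 0 at stages 8.5 and 9 are values of models listed at 0 in all 4 neurula libraries, so they do not show a level course.

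The model called was XeXenL6RMv10001921m, which peaked at stage 10. It was listed at 0 up to stage 8.5, and its values at stages 9, 10 and 12 were 0.44, 25.2 and 23.75 TPM. In the neurula it had 5.86, 3.16, 2.54 and 1.07 TPM, each stage below the one before. It fell by 0.54 ± 0.11 (SE) per stage interval on the log2 scale (limma adjusted p = 0.00686). The call was lost in 5 of 15 alternatives, with a limma adjusted p between 0.0005795 and 0.3605. The slope was negative in all 15, but for a course that falls at each step only the other scalings could have changed its sign. Without stage 14 the limma adjusted p was 0.181 and without stage 20 it was 0.3605, with slopes of -0.50 and -0.48.

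The trend across the 4 tailbud stages came from the same fit. The rule chose the models by the mean of these libraries, so their tailbud values are given as a description and nothing is read from the counts against all models. limma called 3 of 171 pulse models lower over time, beside 1.13% of all models, and 0 higher, beside 4.4% of all models. At an unadjusted p under 0.05 limma gave 21 lower (12.3%) and 2 higher (1.17%), beside 4.85% lower and 7.63% higher of all models. 92 of the 187 pulse models had a tailbud mean of at least 1 TPM, so the remaining RNA was low for the others. The median slope was -0.18 in the 171 pulse models, 28 of which were listed at 0 throughout the tailbud, and -0.05 in all models. Among models with a tailbud mean of at least 1 TPM it was -0.47 in 92 pulse models and -0.07 in all 20980 such models. With spike-in scaling the median slope was -0.08 in the 171 pulse models and 0.23 in all models. The summed level of the pulse models was then 1681, 1682, 663 and 1255 at stages 23, 26, 30 and 33. The fall of the sum from stage to stage thus depended on the scaling.

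XeXenL6RMv10017170m stood at 68.3 TPM at stage 12, its peak, and at 15.7, 6.66, 3.58 and 0.82 TPM at stages 23, 26, 30 and 33. Its fitted slope was -1.03 ± 0.25 (SE) per stage interval on the log2 scale. XeXenL6RMv10011441m had 31.45 TPM at stage 12 and 4.39, 2.07, 0.66 and 0.62 TPM in the tailbud, with a slope of -0.61 ± 0.14 (SE). The third model called, XeXenL6RMv10023726m, was named after its values were seen. It stood at 22.4 TPM at stage 12 and at 2.7, 1.16, 0.5 and 0.37 TPM in the tailbud, with a slope of -0.48 ± 0.12 (SE). All 3 models were lower at each tailbud stage than at the one before. Without stage 23 limma called 0 of the 171 lower, beside 0.452% of all models, with 1 lower and 2 higher at an unadjusted p under 0.05. Without stage 33 it called 1 lower, beside 0.637% of all models. The calls were lost in 5 of 15 alternatives for XeXenL6RMv10017170m and in 6 of 15 for XeXenL6RMv10011441m.

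A feature that the rule did not use was the numbering of the models. 44 of the 187 pulse models (23.5%) had an identifier number directly next to that of another pulse model, in 17 runs. Of these runs 11 held 2 models, 3 held 3, 2 held 4 and 1 held 5. Among the 247 sustained models 12 (4.86%) were in such runs, 6 runs of 2, a difference that was not tested. The peak stage was shared by all models of a run in 15 of the 17 runs of pulse models and in all 6 runs of sustained models. Runs with a shared peak stage thus occurred in both sets. The sustained runs are few and short, and 81.4% of sustained models peaked at stage 12, against 55.1% of pulse models. A shared peak stage is therefore more easily met among sustained models, and these counts were not tested. The sources used here do not say what the order of the numbers stands for, so neither position in the genome nor likeness of sequence is known for these models.

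The longest run went from XeXenL6RMv10006251m to XeXenL6RMv10006255m. These 5 models peaked together at stage 10, at 65.7, 109, 103, 31.15 and 29.7 TPM in the order of their numbers. At stage 9 they stood at 4.91, 26.8, 90.35, 26.3 and 8.45 TPM and at stage 12 at 7.77, 5.92, 5.5, 1.17 and 3.36 TPM. Their relative levels thus differed between stages 9 and 10, while all 5 were at 7.77 TPM or less at stage 12.

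A run of 4 from XeXenL6RMv10039492m to XeXenL6RMv10039495m had the same brief course. It stood at 56.4, 35.85, 80.15 and 44.3 TPM at stage 10 and at 1.6, 1.4, 3.55 and 5.41 TPM at stage 12. The other run of 4, from XeXenL6RMv10044547m to XeXenL6RMv10044550m, peaked at stage 12 at 46.05, 61.1, 48.4 and 28.8 TPM. At stage 20 it was still at 20.5, 24.8, 25.8 and 6.95 TPM, and at stage 23 it stood at 3.55, 5.63, 8.38 and 3.17 TPM. Runs thus occurred in both the brief and the longer class. If models of a run are near-identical, their shared reads may have been split between them, so levels within a run are uncertain. Equal values were also found outside the runs. XeXenL6RMv10014026m and XeXenL6RMv10041410m, in no run, shared their peak (18.47 TPM), neurula mean (2.64 TPM) and tailbud mean (1.67 TPM).

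**Figure D5:**
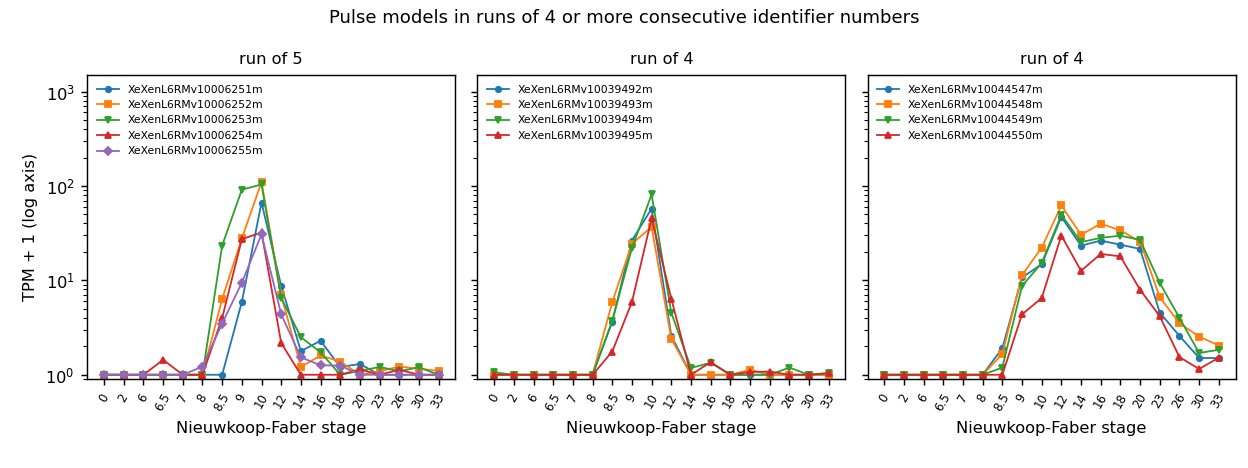
TPM + 1 on a log axis by stage for the pulse models in runs of 4 or 5 consecutive identifier numbers, 1 line per model and 1 point per library. The models of a run share their peak stage, at 10, 10 and 12 from left to right, and the models of the last run are still at 6.95 TPM or more at stage 20.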

How the data were processed

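Poly(A)+ RNA of 18 whole-embryo libraries was analysed from a table of TPM values as deposited by the authors. The submitters' processing notes name CASAVA 1.8.2, Trimmomatic, Bowtie and RSEM. The sources used here do not give their roles, a genome build or further versions. TPM keeps no depth, so no counting interval or floor is given. The 88 spike-in features were left out of the model set, and no per-sample column was left unused. The members, lists and rules were chosen with earlier results of these data known. Trends were fitted in R 4.3.3 (limma 3.58.1) to log2(TPM + 1) values, with 1 mean per period (5 periods) and a linear slope over stage order in the neurula and in the tailbud, for models with at least 1 TPM in 2 libraries or more. Two-sided p-values were adjusted over all models tested, with a threshold of 0.05. Stages of a period are not replicates, so these p-values set a slope against the scatter of stages within periods. Data were simulated with independent noise of capped spread around the fitted values. Known slopes were given only in the neurula and only to models well above 0 on average. The fit recovered their median slopes and made no false call in the neurula. It called few of the models given a slope, so a model not called may still have one. The tailbud slope was not examined in this way, nor were slopes of models near 0. That noise does not hold the rise of pulse models within a period, so the simulation says nothing about its effect. The text names the 2 models with the highest peak for each peak stage, at most 2 called models for each trend and direction with a period mean of at least 1 TPM. Chosen afterwards were another model called in the tailbud, 1 example peaking at stage 9, the models with equal neurula slopes and the identifier runs. The nearest models at each threshold of the rule are given without identifiers. Alternatives were other scalings, pseudocounts, filters and thresholds, and leaving out libraries. Other steps used Python 3.11.15.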

Additional observations from a re-analysis of the deposited data

Results flagged for a closer look

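For 11 named models and for the summed TPM of all 187, 36 groups of 4 or 5 libraries were examined, of which 3 held a library far from the others of its period. Chance gives about 1 such group in 20 among replicates, but the libraries of a period are successive stages, so that rate does not apply here. The values at stages 0 and 23 are also among those the rule used. XeXenL6RMv10012684m stood at 63.43 TPM at stage 16, with the other 3 neurula libraries listed at 0. XeXenL6RMv10052601m stood at 19.74 TPM at stage 0, with the other 4 early libraries listed at 0. XeXenL6RMv10049277m stood at 10.92 TPM at stage 23, while the other 3 tailbud libraries lay between 4.34 and 4.98 TPM.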

How the results depend on the processing

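The rule took in 187 models as deposited, 110 with spike-in scaling, and 122 or 310 with shares of at most 5% or 20% at both ends. With the highest early and tailbud library in place of the mean it took in 127. At stage 23, 38 of the 187 still stood at 10% of the peak or more. Quantile normalization gave 248 models, of which 171 were among the 187. Leaving out 1 library gave 108 (without stage 12) to 205 (without stage 23). Stage 8.5 held 9 peaks with median-of-ratios scaling and 2 without the single-library models (chosen after seeing the data), against 14. Stage 9 held 14 with median-of-ratios scaling and 16 with quantile normalization, against 28. Stage 10 held 66 when rescaled without the on/off pair and 67 with quantile normalization, against 42. The median neurula level was 21.268% of the peak with spike-in scaling and 21.634% without the single-library models, against 16.4%, and 15.5% to 19.1% without 1 neurula library. The neurula count called lower by limma was 8 with median-of-ratios scaling (0.497% of all models), 5 when rescaled (0.182%), 8 with quantile normalization (0.709%), 4 with a pseudocount of 5 (0.218%) and 7 without the 5 libraries of the on/off pair (0.247%). It was 0 with spike-in scaling (0.06% of all models; 5 pulse models at an unadjusted p under 0.05), 0 with a pseudocount of 0.1 (0.0879%; 9 unadjusted), and 0 to 1 without 1 library (0.142% to 0.201%). The tailbud count called lower by limma was 7 with median-of-ratios scaling (1.34% of all models), 5 with spike-in scaling (0.524%), 10 with quantile normalization (2.07%), 1 with a pseudocount of 0.1 (0.314%) or 5 (2.48%), and 0 to 3 without 1 library (0.452% to 1.04%). The tailbud count called higher was 2, 3 and 2 with those 3 scalings (7.09%, 11.8% and 4.6% of all models). In the neurula or the tailbud libraries alone limma called 0 of all 23880 models, so the 0 pulse models called there (64 and 68 lower at an unadjusted p under 0.05) say nothing about them. The cause of these changes was not tested. No paired analysis was possible because each stage has 1 library and the labels give no replicate numbers. The trends of XeXenL6RMv10001921m, XeXenL6RMv10017170m and XeXenL6RMv10011441m kept their direction in all 15 alternatives. Each of these models fell at every step of its period, so only the other scalings could have changed the direction. That of XeXenL6RMv10023726m was not examined under them.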
